A study of Mus musculus with 2 samples.

Results

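The genes described here are the receptors of the epidermal growth factor (EGF) family, the ligands that bind them and a cytosolic inhibitor, in tumours of the mouse mammary carcinoma line 4T1. They were found by symbol in the deposited table of counts and comprise 3 receptors (Egfr, Erbb2 and Erbb3), 6 ligands (Areg, Ereg, Hbegf, Tgfa, Btc and Epgn) and the feedback inhibitor Errfi1. All 10 had a row, of 34259 rows on the count scale. The treated group was 1 library from a 4T1 tumour collected after 3 injections of a degrader of an autophagy-related protein, and the control group was 1 library from a 4T1 tumour labelled as control. The labels name neither the degrader's target nor what the control animal received, and give no mouse strain, age, or number of animals behind a library. The labels put the treated tumour in batch 1 and the other in batch 2, and the effects of batch and of treatment cannot be told apart. With 1 library per group there was no spread between tumours and no test of conditions, and every interval below covers counting error only.

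EGF-like ligands are made as membrane-anchored precursors and are released by metalloproteases of the ADAM family. The freed ligand binds EGFR, which pairs with another EGFR or with ERBB2 or ERBB3 and signals through the RAS to ERK and PI3K to AKT cascades. ERBB2 has no known ligand of its own, ERBB3 has a weak kinase and binds neuregulins, and ERRFI1 (MIG6) binds the activated kinase domain and blocks it. In the mammary gland amphiregulin carries growth signals for the ducts at puberty, and in skin several of the ligands are made by keratinocytes themselves.

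The ligands share a short folded module held together by disulphide bonds, which makes contact with the receptor. The stretches of coding sequence for this module, from the first to the last cysteine, are shown because the ligands that differed between the tumours and those that did not carry the same module. They were read from the mouse transcripts of GENCODE M21 (GRCm38, the assembly also called mm10), on the coding strand, and the codons of the 6 cysteines are in capitals.

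Areg: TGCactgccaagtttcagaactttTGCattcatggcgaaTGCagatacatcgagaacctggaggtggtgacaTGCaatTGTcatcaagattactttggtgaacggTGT
Epgn: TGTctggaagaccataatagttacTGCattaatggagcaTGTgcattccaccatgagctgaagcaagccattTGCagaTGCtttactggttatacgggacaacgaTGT
Ereg: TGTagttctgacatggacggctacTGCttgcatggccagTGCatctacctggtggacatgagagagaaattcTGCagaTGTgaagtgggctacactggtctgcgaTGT
Btc: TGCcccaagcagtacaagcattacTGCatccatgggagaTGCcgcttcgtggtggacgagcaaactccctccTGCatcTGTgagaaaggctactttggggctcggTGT
Tgfa: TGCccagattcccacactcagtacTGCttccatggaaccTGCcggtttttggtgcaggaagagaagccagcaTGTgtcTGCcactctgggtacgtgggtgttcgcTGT

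Each of these 5 stretches was 108 bases long and encoded 36 residues with the cysteines at the same spacing, and the stretch of Hbegf was not analysed here. In the encoded residues, Tgfa and Btc were the closest pair of these 5, with 52.8% identity, whereas Areg shared 33.3% with Ereg and with Epgn and 38.9% with Tgfa and with Btc. The genes of 4 ligands lie together on chromosome 5, in the order Epgn, Ereg, Areg and Btc, over 375.5 kb (91027464 to 91402994). The receptor proteins, translated from the same transcripts, shared 53.8% identity between Egfr and Erbb2, 45.2% between Egfr and Erbb3 and 44.3% between Erbb2 and Erbb3.

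Amphiregulin was the member that differed most among those with enough counts, and it was higher in the treated tumour. Heparin-binding EGF-like growth factor, transforming growth factor alpha, Egfr, Erbb2 and Errfi1 all stayed within 2-fold. Levels are given as CPM, the counts of a gene relative to the library total after TMM scaling (trimmed mean of M values), which corrects the total for composition. A member was called higher or lower at a log2 ratio of 1 or more in size, computed on CPM + 1, if its mean level over the libraries reached 10 CPM. Of the 10 members, 6 reached this minimum, 1 of them (Areg) was at least 2-fold higher in the treated library and none was at least 2-fold lower. Over all 8865 genes that reached the minimum, the percentage called at least 2-fold higher was 4.23% and the percentage called lower 2.50%. With the minimum lowered to 1 CPM, 4 of the 10 members (Areg, Epgn, Btc and Erbb3) were called higher, against a percentage of 7.66% over all genes that reached it, and Epgn and Btc lay under 1 CPM in the control library. The median log2 ratio of the 6 members was -0.23, against 0.03 over all genes that reached the minimum.

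**Figure D1:**
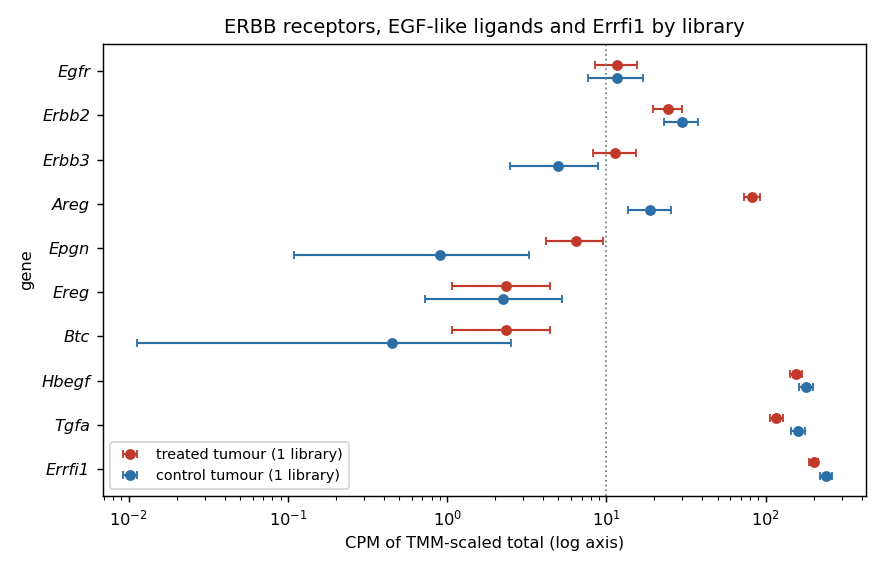
Level of each gene in CPM on a log axis, in the treated (red) and the control (blue) library, with exact Poisson 95% intervals as bars and the minimum of 10 CPM as a dotted line. Areg stood at 82.0 and 18.9 CPM with intervals far apart, whereas Egfr stood at 11.6 and 11.7 CPM.

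Areg (ENSMUSG00000029378, chromosome 5, 91139599 to 91148432, plus strand) encodes amphiregulin, a ligand of low affinity for EGFR that is strongly induced in epithelium by many stimuli. It had 317 treated and 42 control counts, or levels of 82.0 CPM (95% interval 73.2 to 91.6) and 18.9 CPM (13.6 to 25.5). The control level alone was above the minimum, so the gene did not enter the comparison through the treated library only. The treated level was 4.35-fold higher (3.15 to 6.16), and 113 of the 8865 genes, or 1.27%, had a log2 ratio at least as high as its 2.07. The GENCODE M21 annotation, which was not necessarily the one used for counting, places no other gene over Areg. Under 5 other scalings or sheets the fold lay between 4.28 and 4.45.

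The promoter of Areg is shown because, among the ligands with a window, it alone held a match to a motif searched. The window, from RefSeq (build GRCm38.p6), spans 250 bases before to 50 bases after the annotated start, chr5:91139349-91139648, plus strand, with the match to a cyclic AMP response element in capitals.

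Areg promoter: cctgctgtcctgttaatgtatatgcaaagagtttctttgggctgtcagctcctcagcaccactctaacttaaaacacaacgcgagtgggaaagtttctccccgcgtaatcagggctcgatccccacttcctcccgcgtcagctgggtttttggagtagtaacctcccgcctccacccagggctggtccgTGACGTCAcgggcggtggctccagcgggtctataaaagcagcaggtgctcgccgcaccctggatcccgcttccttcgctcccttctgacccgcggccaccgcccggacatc

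The match, TGACGTCA, begins 61 bases before the start. Windows were available for 7 of the members, Errfi1 with 2, and each was searched on both strands for TGACGTCA and for TGANTCA, the binding motif of AP-1 factors. TGACGTCA was found in 2 of the 8 windows, that of Areg and 1 of the 2 of Errfi1, where it begins 51 bases before the start, and in 1.79% of all 32851 windows of this length. TGANTCA was found in none of the 8, and in 7.81% of all windows. The search says only which letters stand in these windows, and the part of the match in the level of Areg or Errfi1 was not tested.

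Hbegf (ENSMUSG00000024486, chromosome 18, 36504927 to 36515805, minus strand) encodes a ligand that binds heparan sulphate and signals through EGFR and ERBB4. It had 599 treated and 400 control counts, or 155 and 179.5 CPM. The treated level was 0.864 times the control level (0.760 to 0.982), a small difference on the lower side. Tgfa (ENSMUSG00000029999, chromosome 6, 86195223 to 86275719, plus strand) encodes transforming growth factor alpha, a ligand of EGFR made by many carcinomas and by keratinocytes. It had 450 treated and 357 control counts, or 116 and 160 CPM, and a ratio of 0.727 (0.631 to 0.838). Under TMM scaling both ligands had enough counts for their intervals to leave out 1, and neither came near the 2-fold rule. The intervals take that scaling as exact, and with plain library totals the ratio of Hbegf was nearer to 1, at 0.882.

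The other 3 ligands were sparse. Epgn (ENSMUSG00000035020, chromosome 5, 91027464 to 91035215, plus strand), which encodes the epithelial mitogen epigen, had 25 treated and 2 control counts, or 6.47 and 0.897 CPM, a ratio of 7.21 (1.80 to 62.8). Btc (ENSMUSG00000082361, chromosome 5, 91357261 to 91402994, minus strand) encodes betacellulin, a ligand of EGFR and ERBB4, and had 9 counts against 1, a ratio of 5.19 (0.719 to 227.5). Ereg (ENSMUSG00000029377, chromosome 5, 91074622 to 91093646, plus strand) encodes epiregulin, which also binds both receptors, and had 9 counts against 5, a ratio of 1.04 (0.312 to 3.94). Epgn was thus higher beyond counting error, whereas the depth could not show a difference for Btc or Ereg. Areg, Epgn, Ereg and Btc are neighbours on chromosome 5, and their folds differed from 1.04 to 7.21.

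The make-up of the ligand counts differed between the tumours, while their sum differed by less than counting error. All 6 ligands together had 1409 treated and 807 control counts, a ratio of 1.01 (0.923 to 1.10). Without Areg the other 5 had 1092 and 765 counts, a ratio of 0.823 (0.750 to 0.904). Areg made up 22.5% of the ligand counts in the treated library (exact Clopper-Pearson 95% interval 20.3% to 24.8%) and 5.20% in the control library (3.78% to 6.97%). The share of Tgfa was 31.9% (29.5% to 34.4%) and 44.2% (40.8% to 47.7%), and that of Hbegf 42.5% (39.9% to 45.1%) and 49.6% (46.1% to 53.1%). These shares compare a gene with itself across libraries, since counts of different genes may also depend on transcript length.

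Per kilobase of the transcript with the longest coding sequence, Areg, Errfi1 and Hbegf had overlapping intervals in the treated library, at 67.5 (60.3 to 75.4), 65.7 (61.2 to 70.5) and 65.3 (60.1 to 70.7) CPM per kilobase. Tgfa followed at 25.7 (23.4 to 28.2). In the control library Errfi1 and Hbegf led with 78.4 (71.9 to 85.4) and 75.6 (68.3 to 83.4), Tgfa had 35.4 (31.8 to 39.3), and Areg came after Tgfa with 15.5 (11.2 to 21.0). The remaining members stayed under 6 CPM per kilobase in both libraries, with Erbb2 the highest of them at 4.85 and 5.91. Whether the library kit captures whole transcripts or their ends is not stated in the labels, and division by length applies only to the former.

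Among the receptors, Egfr and Erbb2 were at like levels in both tumours and Erbb3 was higher in the treated one, from few counts. Egfr (ENSMUSG00000020122, chromosome 11, 16752203 to 16918158, plus strand), the receptor that all 6 ligands bind, had 45 treated and 26 control counts, or 11.6 and 11.7 CPM, a ratio of 0.998 (0.603 to 1.69). Erbb2 (ENSMUSG00000062312, chromosome 11, 98412470 to 98437716, plus strand), the shared partner receptor, had 94 and 66 counts, or 24.3 and 29.6 CPM, a ratio of 0.821 (0.593 to 1.14). Erbb3 (ENSMUSG00000018166, chromosome 10, 128567523 to 128589652, minus strand), the neuregulin receptor, had 44 and 11 counts, or 11.4 and 4.94 CPM, a ratio of 2.31 (1.17 to 4.95). Its mean of 8.16 CPM was below the minimum, so it was not counted among the members called. For Egfr, a difference of up to 1.69-fold higher or 1.66-fold lower lay within counting error.

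Errfi1 (ENSMUSG00000028967, chromosome 4, 150853919 to 150868892, plus strand), which is transcribed in response to EGFR and ERK activity and then shuts the receptor down, was slightly lower in the treated tumour. It had 773 treated and 532 control counts, or 200.0 and 238.7 CPM, a ratio of 0.838 (0.749 to 0.937). Its direction was thus opposite to that of Areg and close to those of Hbegf and Tgfa.

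**Figure D2:**
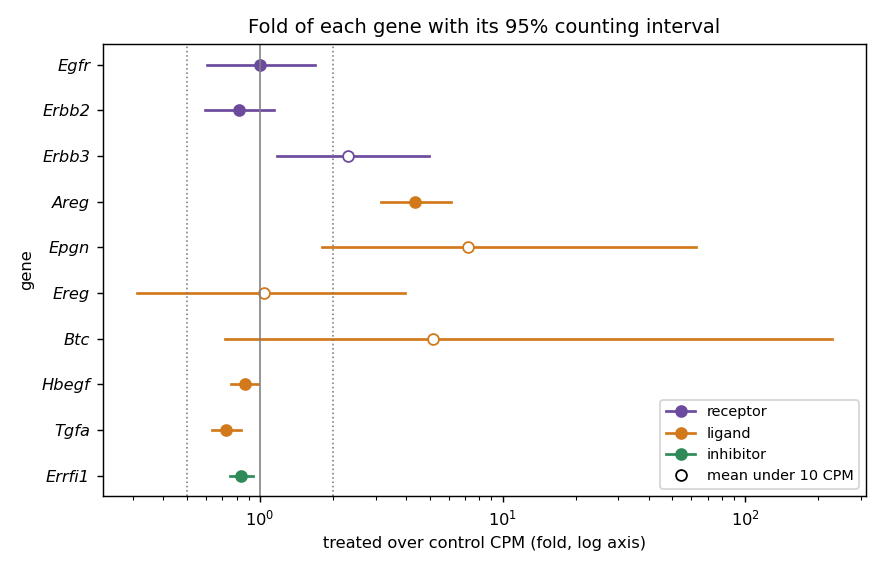
Treated over control CPM of each gene on a log axis with exact conditional binomial 95% intervals, coloured by role, with open points for genes with a mean under 10 CPM and dotted lines at 2-fold. Areg stood at 4.35 with an interval that begins at 3.15, Epgn at 7.21 with a wide one, and Hbegf, Tgfa and Errfi1 just under 1.

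The ratio of a ligand's fold to that of Egfr does not depend on how the libraries were scaled. It was 4.36 for Areg (2.32 to 8.06) and 7.22 for Epgn (1.56 to 66.8). For Hbegf it was 0.865 (0.504 to 1.46), for Tgfa 0.728 (0.423 to 1.23), for Btc 5.20 (0.645 to 236.5) and for Ereg 1.04 (0.277 to 4.39). Areg and Epgn therefore differed more than Egfr did, beyond the counting error of both genes, and the other ligands did not do so at this depth. Against Egfr, Erbb3 had a ratio of 2.31 (0.957 to 5.81).

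Genes of keratinocytes, which make EGF-like ligands, were also higher in the treated library. Of all genes that reached the minimum, 4.23% were at least 2-fold higher. All 15 keratinocyte markers that reached the minimum, of 19 with a row, were at least 2-fold higher, but 12 of them lay under 10 CPM in the control library and so reached it through the treated one. The summed level of all 19 was 3566 CPM against 195.2 CPM in the control tumour, 18.3-fold higher (16.6 to 20.1). Krt14, the keratin of basal epithelium, had 3856 treated and 275 control counts, a ratio of 8.09 (7.15 to 9.17), while its partner Krt5 had 1038 and 3, and Krtdap, of differentiating keratinocytes, 1356 and 5. In the control library Krt15, Krt2, Dsg3, Dsc3, Ivl and Dsc1 had no counts. These values are those of the full sheet: the authors' second sheet leaves out Krtdap and Sbsn and lists Dsc3 at 89 control counts beside 200 treated ones, a ratio of 1.30 (1.00 to 1.68). On that sheet 12 of 13 markers were at least 2-fold higher and the summed level was 13.5-fold higher (12.4 to 14.8), a comparison added after the data were seen. Among markers of carcinoma epithelium, Krt8 and Krt18 had ratios of 1.08 (1.04 to 1.13) and 1.13 (1.08 to 1.18), and the summed level of the list was 6067 and 5336 CPM, a ratio of 1.14 (1.11 to 1.16). Their median log2 ratio was 0.31, against 0.03 over all genes, and 14 of 16 lay above 0. Epcam, an epithelial adhesion molecule, had a ratio of 1.54 (1.44 to 1.66). The 2 markers below 0 were Krt7, with a ratio of 0.741 (0.686 to 0.800), and Cdh1, with 0.979 (0.870 to 1.10). Epcam, Krt7 and Cdh1 were named after their values were seen. Of the 16 that reached the minimum, 1 was at least 2-fold higher, Elf3, an epithelial transcription factor, with a ratio of 2.93 (1.60 to 5.79), which at 5.83 CPM in the control library reached the minimum through the treated one, and Spint1, a protease inhibitor, had 1.65 (1.27 to 2.18). The labelled tissue thus carried its epithelial markers in both libraries, with none of the 18 at 0.

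Set against these marker counts, Areg was 3.83-fold higher per carcinoma epithelial count (2.77 to 5.42) and 4.20-fold lower per keratinocyte count (2.93 to 5.90), or 3.11-fold lower (2.17 to 4.36) on the second sheet. Epgn was 6.34-fold higher per carcinoma epithelial count (1.58 to 55.2), and per keratinocyte count its ratio was 0.395 (0.0979 to 3.45), an interval that holds 1. Erbb3 was 2.03-fold higher per carcinoma epithelial count (1.03 to 4.36) and 7.92-fold lower per keratinocyte count (3.66 to 15.7). Hbegf, Tgfa and Errfi1 had ratios of 0.759 (0.667 to 0.866), 0.639 (0.554 to 0.738) and 0.737 (0.657 to 0.826) per carcinoma epithelial count. Per keratinocyte count they were 21.2-fold (17.99 to 24.86), 25.1-fold (21.2 to 29.8) and 21.8-fold (18.8 to 25.3) lower, and Egfr 18.3-fold (10.7 to 30.6). On this scale any gene with a fold under the 18.3 of the summed markers is lower. On the full sheet Krt14 gave 275 of the 435 marker counts of the control library. Krt14 had a ratio of 8.09 and Krt5 one of 199.5, so values per keratinocyte count depend on the markers summed. In bulk RNA, more cells of a type and more RNA per cell cannot be told apart, and the part of keratinocyte content in the level of Areg, Epgn or Erbb3 was not tested.

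**Figure D3:**
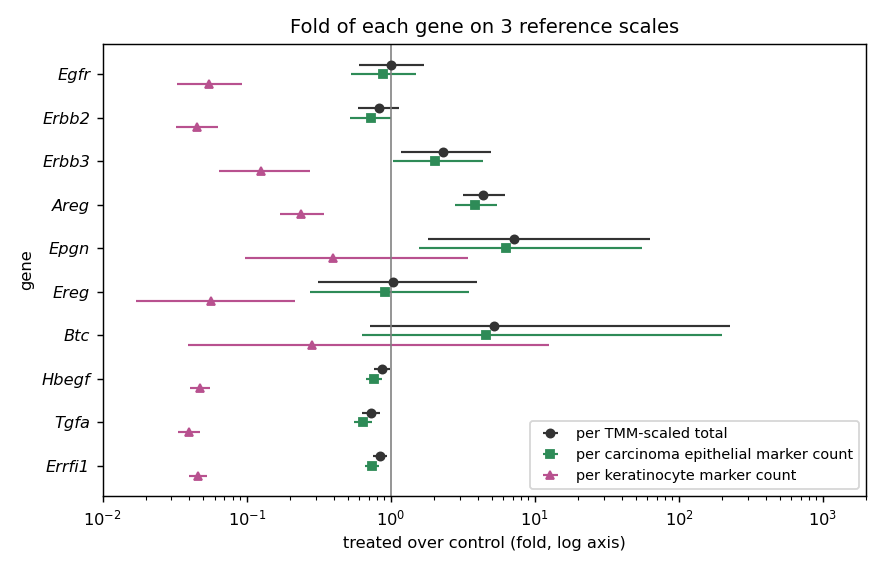
Treated over control ratio of each gene on a log axis, with 95% counting intervals, taken per TMM-scaled total (circles), per summed count of the carcinoma epithelial markers (squares) and per summed count of the keratinocyte markers (triangles). Areg stood at 4.35, 3.83 and 0.238 on these scales.

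Markers of other cells that can make or receive these ligands were given the same way. Over all genes that reached the minimum, 4.23% were at least 2-fold higher and 2.50% lower. Neutrophil markers had summed levels of 2895 CPM (treated) and 2082 CPM (control), and 9 of 11 that reached the minimum were at least 2-fold higher and 1, the gelatinase gene Mmp9, lower, with a ratio of 0.216 (0.200 to 0.234). Cxcr2, Csf3r and Trem1 were under 10 CPM in the control library and reached the minimum through the treated one, as did Cd68 among the macrophage markers. S100a8 and S100a9, the calprotectin genes that activated keratinocytes also express, had ratios of 2.47 (2.29 to 2.66) and 3.29 (3.07 to 3.53), and Cxcr2, a chemokine receptor, 6.44 (2.81 to 18.2). Macrophage markers summed to 2396 and 2167 CPM, with 3 of 13 at least 2-fold higher. Mrc1, the mannose receptor, and Cd14, a co-receptor for bacterial lipopolysaccharide, had ratios of 2.99 (2.52 to 3.57) and 2.70 (2.09 to 3.51). Apoe and Lyz2, the most abundant markers of that list, had ratios of 1.24 (1.17 to 1.33) and 0.632 (0.588 to 0.680). Fibroblast markers summed to 2179 and 2496 CPM, with 2 of 10 at least 2-fold higher, Dcn at 2.42 (1.97 to 2.98) and Mmp2 at 2.26 (1.62 to 3.19), while Col3a1 and Col1a2 had ratios of 0.832 (0.781 to 0.885) and 0.703 (0.653 to 0.758). Endothelial markers summed to 235.2 and 415.5 CPM, with 5 of 10 at least 2-fold lower, among them the junction genes Cdh5 at 0.315 (0.232 to 0.425) and Cldn5 at 0.283 (0.172 to 0.457), and Tek and Eng at ratios of 0.563 (0.470 to 0.674) and 0.764 (0.597 to 0.980). Of the lower genes, Cldn5 and Esam, at 6.99 and 8.54 CPM in the treated library, reached the minimum through the control one. Csf3r, Trem1, Cd68 and Esam were named after their values were seen. Of the T cell markers, Cd3g alone reached the minimum, with a ratio of 1.03 (0.613 to 1.78). The part of these cells in the levels of the ligands was not tested.

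None of the other genes of the ERBB family reached the minimum of 10 CPM, though Nrg1 came close, at 9.06 and 9.87 CPM. Nrg1, a neuregulin that binds ERBB3 and ERBB4, had 35 treated and 22 control counts, a ratio of 0.917 (0.523 to 1.64). Erbb4, the fourth receptor, had 6 and 5 counts, a ratio of 0.692 (0.176 to 2.87), and Nrg4 had 4 and 2. Egf had 2 counts in each library, Nrg2 had 2 and 1, and Nrg3 had 2 and 0, so no fold was computed for these genes.

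Of the 10 genes for ligand shedding, all reached the minimum, none was at least 2-fold higher and 3 were at least 2-fold lower, against 4.23% higher and 2.50% lower over all genes. Their median log2 ratio was -0.27. Adam17, the protease that releases most of these ligands, had 220 and 126 counts, a ratio of 1.01 (0.805 to 1.26), and Adam10, which releases betacellulin, a ratio of 0.895 (0.795 to 1.01). The 3 lower genes were Adam12, with 62 and 78 counts and a ratio of 0.458 (0.323 to 0.648), Adam19, with a ratio of 0.461 (0.281 to 0.753), and Timp3, an inhibitor of ADAM17 found in the matrix, with a ratio of 0.464 (0.330 to 0.650). Adam19, at 8.28 CPM in the treated library, reached the minimum through the control one. Adam9 had a ratio of 0.608 (0.517 to 0.717). Rhbdf1, which encodes an iRhom that carries ADAM17 to the cell surface, had a ratio of 1.77 (1.17 to 2.72). Rhbdf2, for another iRhom, had a ratio of 1.28 (0.832 to 2.01), an interval that holds 1. Adam17, Adam19, Rhbdf1 and Rhbdf2 were named after their values were seen.

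Among the adaptors and kinases below the receptor, differences were under 2-fold and went both ways, some of them beyond counting error. None of the 29 adaptor and cascade genes that reached the minimum was 2-fold higher or lower, against 4.23% higher and 2.50% lower over all genes. Their median log2 ratio was 0.02. Nras, a RAS protein, had a ratio of 0.887 (0.765 to 1.03). The genes furthest from 1 were Sos2, a nucleotide exchange factor for RAS, at 0.545 (0.439 to 0.675), and Pik3r2, a regulatory subunit of PI3K, at 1.60 (1.06 to 2.48). Map2k1 and Map2k2, named after their values were seen, had ratios of 0.699 (0.582 to 0.840) and 1.31 (1.12 to 1.55). None of the 19 genes of receptor down-regulation that reached the minimum was 2-fold higher or lower either, with a median of -0.08. Cblb, a ubiquitin ligase for activated receptors, had a ratio of 0.585 (0.417 to 0.819) and Ptprj, a receptor phosphatase, 0.587 (0.396 to 0.871). Rab7, of late endosomes, had a ratio of 1.28 (1.10 to 1.50), and the adaptor Cd2ap 0.992 (0.843 to 1.17).

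Genes that ERK signalling induces did not move one way. Of 25 that reached the minimum, 1 was at least 2-fold higher and none lower, against 4.23% higher and 2.50% lower over all genes. Of the 25, 13 lay above 0 and 12 below, with a median log2 ratio of 0.02. The gene past the threshold was Dusp1, a phosphatase induced by growth factors and by stress, with 142 and 37 counts and a ratio of 2.21 (1.53 to 3.27). Fos, an immediate early transcription factor, had 172 and 49 counts and a ratio of 2.02 (1.47 to 2.84), just short of the rule after the pseudocount. Dusp6, the phosphatase specific for ERK, had 718 and 741 counts and was lower, with a ratio of 0.559 (0.504 to 0.620). Dusp4 had a ratio of 0.486 (0.294 to 0.798), Spred1, an inhibitor of RAS signalling, 0.674 (0.530 to 0.859), and Spry1, another inhibitor, 1.63 (1.26 to 2.13). Dusp4, at 8.28 CPM in the treated library, reached the minimum through the control one. On the higher side, the AP-1 factor gene Fosl1 had a ratio of 1.88 (1.33 to 2.71), Ptgs2, which encodes cyclooxygenase 2, 1.68 (1.51 to 1.88), Egr1 1.58 (1.22 to 2.08) and Plaur, the urokinase receptor gene, 1.52 (1.29 to 1.81). Ccnd1 and Junb, the most abundant genes of the list, had ratios of 1.01 (0.951 to 1.07) and 0.946 (0.887 to 1.01). Dusp6, Dusp4, Spred1, Spry1, Fosl1, Ptgs2, Egr1 and Plaur were named after their values were seen.

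**Figure D4:**
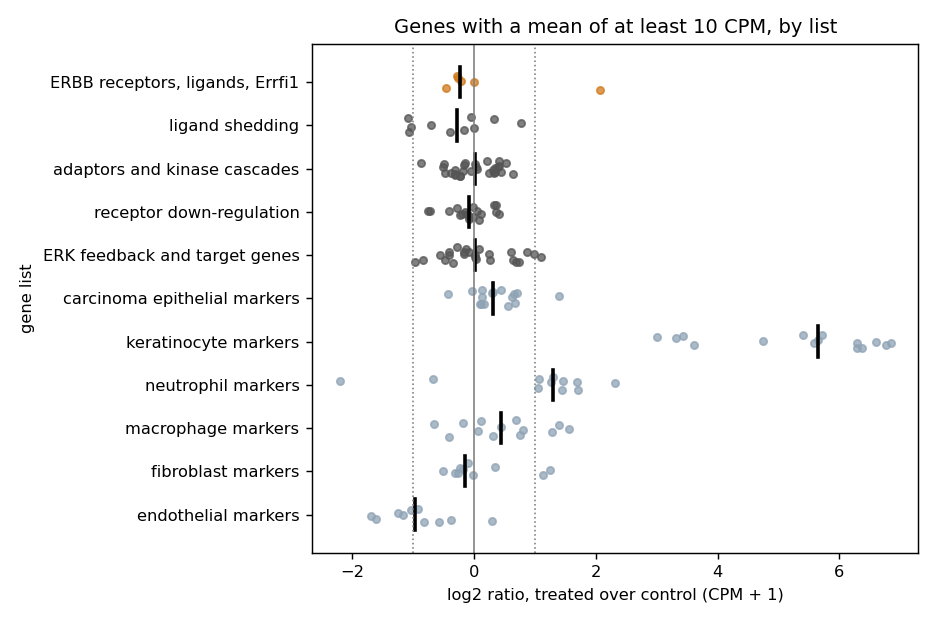
Log2 ratio of treated over control CPM + 1 for each gene with a mean of at least 10 CPM, by gene list, with the median of a list as a black bar and dotted lines at 2-fold. Among the genes described (orange), Areg stood at 2.07 and the other 5 between -0.46 and 0, while the keratinocyte markers lay between 3.01 and 6.84.

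The annotated spans of some members, introns included, overlap that of a gene on the other strand. Whether the counting used strand was not stated in the sources at hand. Without strand, reads from exon bases that 2 genes share cannot be told apart, and whether exons overlap was not measured. Over Erbb2 the annotation places Mien1, with 322 treated and 153 control counts, more than Erbb2 itself. Egfros over Egfr had 2 and 3 counts, Gm19610 over Ereg 2 and 0, and 1700045H11Rik over Errfi1 none in either library. Gm25048 over Erbb2, Gm43917 over Tgfa and Mir6917, on the same strand as Erbb3, had no row. Areg, Hbegf, Btc and Epgn overlap no annotated gene.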

How the data were processed

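Bulk RNA from 4T1 tumours was sequenced in 1 treated and 1 control library, each made per the labels from 1.5 µg of total RNA with an AccuraCode kit. Gene-level counts were deposited by the authors; per the submitters' processing notes the build was mm10, while aligner, counting tool and use of molecular identifiers were not stated. The column of each library was identified through the second sheet deposited for that sample, which holds a single column of that name, and 7 other columns of values were not used. The first 31 of 34290 rows, autophagy genes, hold other, mostly non-whole values in a unit that is not given and were left out; no member is among them. The second sheet leaves out 40 genes and gives other control values for 3 genes, Krt79 (99 in place of 1), Pof1b (99 in place of 2) and Dsc3 (89 in place of 0). It holds all 10 members with the same counts and served as an alternative.

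The libraries held 3824323 and 2252214 counts, so that 1 count was worth 0.259 CPM (treated) or 0.449 CPM (control). TMM factors (trimming 30% of log ratios and 5% of abundances from either end) were 1.01 and 0.989. Log2 ratios used a pseudocount of 1 CPM, which understates differences of low genes, whereas folds used none and carry exact conditional binomial 95% intervals. No fold was given where both libraries had 3 counts or fewer. Scripts used Python 3.11.15, numpy 2.4.6 and scipy 1.17.1 and were tested on simulated data. Named were all members and the other ERBB family genes, and of each further list the 2 most abundant and the 2 most different genes; 1 gene that this rule names is not reported here. The members and all lists were chosen with earlier results of these data known. The spacing of the cysteine motif in the plan was wrong in its last part and was corrected to the 8 residues between the last cysteines. The alternatives were 3 other scalings, 2 pseudocounts, 3 minimums, a 1.5-fold threshold, the second sheet, and keeping the 31 rows.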

Additional observations from a re-analysis of the deposited data

How the results depend on the processing

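No paired analysis was possible because each group holds 1 library, and leaving out a library leaves no comparison. The folds of the 10 members stayed within their counting intervals in all 50 recalculations under other scalings, sheets and rows. Areg, the member called, kept its direction in all of them. The median of the ligands changed sign, as did the small medians of the cascade list (0.02 to -0.005) and the ERK list (0.02 to -0.010 and -0.033). The number of members at least 2-fold higher rose from 1 to 2 with library totals that left out mitochondrial, haemoglobin and ribosomal protein genes. These smaller totals raise every CPM, so that 9652 genes reached the minimum, among them Erbb3 with a mean of 10.73 CPM. Of these genes 4.54% were at least 2-fold higher. The number of members rose to 4 with a minimum of 1 CPM or none (Areg, Epgn, Btc and Erbb3). Over all genes the percentage was 7.66% at 1 CPM and 3.96% with no minimum. The median log2 ratio of the ligands, -0.21 over the 3 measured, was 0.62 over all 6 with a minimum of 1 CPM or none. That of the receptors, -0.14, was -0.003 over all 3 with either, and -0.026 with the totals that left out those genes. In the shedding list the 3 lower genes became 0 with a pseudocount of 5 CPM or a minimum of 50 CPM, against 1.62% and 2.3% of all genes. With the minimum of 50 CPM the median was -0.16. In the ERK list the 1 higher gene became 2 with plain totals or a pseudocount of 0.5 CPM, against 4.54% and 4.46% of all genes. The number was 0 with a pseudocount of 5 CPM or a minimum of 50 CPM, against 3.09% and 2.42%. In that list 1 gene was lower with library totals that left out mitochondrial, haemoglobin and ribosomal protein genes, against 3.01% of all genes. With a 1.5-fold threshold the ERK list had 7 higher and 2 lower, shedding 1 higher and 4 lower, the cascade list 1 higher and 1 lower, and receptor down-regulation 2 lower, against 12.8% of all genes higher and 9.02% lower. Counts of 10 or fewer in either library limit the folds of Epgn, Btc, Ereg, Erbb4, Egf, Nrg2, Nrg3 and Nrg4.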
